A study of Phanerodontia chrysosporium with 12 samples.

Results

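The late response of the white-rot fungus Phanerochaete chrysosporium to oak extractives was read from 6 RNA libraries, the 3 of mycelium harvested 6 h after the extractives were added and the 3 of mycelium harvested at once (T0), out of 12 libraries in the series. All cultures were of the homokaryotic strain RP78, grown for 4 days at 37 °C without shaking in 20 ml of minimal medium with glucose and ammonium tartrate. Each then received extractives drawn with acetone from heartwood of the oak Quercus petraea, at 100 µg/ml from a stock of 200 mg/ml in DMSO. The T0 cultures were given the same extractives and DMSO, so the comparison is between 0 h and 6 h of exposure. DMSO-only cultures of 6 h were not analysed here, and the effects of the extractives, of DMSO and of 6 h of further culture cannot be told apart. RNA came from whole mycelium, in which less of a transcript per cell and fewer cells that make it cannot be told apart.

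White-rot basidiomycetes break down lignin with secreted peroxidases and live on wood whose heartwood holds phenolic and terpenoid defence compounds. The usual route by which such fungi handle small foreign molecules starts with oxidation, often by cytochrome P450 enzymes, goes on with conjugation, as by glutathione transferases, and ends with export by membrane transporters. The deposited tables list gene models by numeric protein ID and do not pair the IDs with gene names. No function is therefore given to any ID, and the response is described by its size, its level and gene length, its course and the few IDs with the largest changes.

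The tables held 13602 IDs, of which 11813 were tested. Total gene reads ran from 2498521 to 9127928 at T0 and from 5433973 to 9291797 at 6 h. A pair of short gene models, of 650 nt and 156 nt, dominated some libraries. The longer took 3.85%, 40.9% and 44.7% of the reads in T0 replicates 1 to 3, and 13.7%, 9.72% and 16.9% at 6 h. The shorter took 0.457%, 5.87% and 6.19% at T0, and 1.83%, 1.13% and 1.34% at 6 h. In both models the 6 h libraries lay between T0 replicate 1 and the other T0 replicates, so the groups overlapped. Neither passed the edgeR test described below. The log2 fold change of the longer was -1.76 with an SE of 1.11 (edgeR, Benjamini-Hochberg adjusted p 0.372), and that of the shorter was -2.17 with an SE of 1.09 (edgeR, Benjamini-Hochberg adjusted p 0.249). Both were left out of all read shares below. These then rest on 1225852 to 8734461 reads per library at T0 and 6 h, and on 729521 to 10364009 at 1 h and 3 h.

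The table of 6 h replicate 3 stood apart at low counts. It listed 116 IDs at 1 to 5 reads and 2296 IDs at 0, where 6 h replicates 1 and 2 had 771 and 653 IDs at 1 to 5 reads and 947 and 1382 at 0. Among the 1691 IDs with a mean of 10 to 30 reads in the other 6 h libraries, 26.0% were at 0 in replicate 3. The same measure was 0.837% for replicate 1 and 7.44% for replicate 2. A 0 in replicate 3 is therefore not read as absence. Differences among the T0 libraries overlapped those between the groups. The median absolute log2 difference between a pair of libraries over the tested IDs was 0.46 to 0.71 within T0, 0.37 to 0.51 within 6 h and 0.48 to 0.80 between the groups.

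At 6 h, 514 IDs were higher and 376 were lower than at T0 at an adjusted p under 0.05, which is 4.35% and 3.18% of those tested and 7.53% together (edgeR's quasi-likelihood test with the Benjamini-Hochberg method over 11813 IDs, 3 libraries a group, spread estimated over all 12 libraries). Most changes were moderate. The median rise was 2.82-fold and the median fall 2.50-fold. The median log2 fold change of all tested IDs was -0.0045, a value that the scaling of libraries centres near 0. Of the IDs that rose, 465 had risen at least 2-fold, 120 at least 4-fold, 26 at least 8-fold and 6 at least 16-fold. Of those that fell, the counts were 307, 63, 12 and 3. The IDs that rose started from a median of 24.7 CPM (reads scaled by TMM to a common library size) at T0 and reached 69.3 CPM, and those that fell went from 75.2 to 29.2 CPM. Both pairs of medians follow from the calls.

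How many IDs passed depended on single libraries. Leaving out T0 replicate 1 gave 241 higher and 179 lower, and leaving out T0 replicate 3 gave 258 and 226. Leaving out 6 h replicate 2 gave 334 and 229, and leaving out 6 h replicate 3, with its few low counts, gave 322 and 187. Leaving out T0 replicate 2 raised the counts, to 741 and 510. In all 6 fits that each left out 1 of these libraries, 182 of the 514 IDs were called higher and 123 of the 376 lower. These 305 IDs had median log2 fold changes of 1.85 and -1.74, and a choice of IDs that pass in every fit favours such larger changes.

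**Figure D1:**
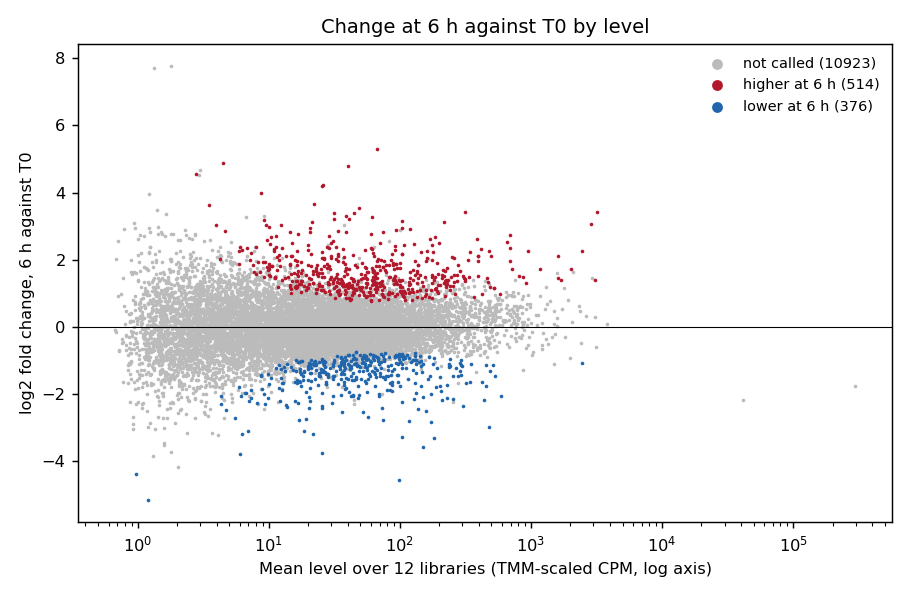
Log2 fold change of 6 h against T0 (vertical axis) by the mean level over the 12 libraries in TMM-scaled CPM (horizontal log axis), 1 point for each of the 11813 tested IDs. The 514 IDs called higher are red and the 376 called lower are blue, and the 2 points far to the right are the dominant models, which were not called.

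The groups of 3 libraries did not overlap for 25% of all tested IDs, with 13.4% higher in every 6 h library and 11.6% lower in every one. Among the called IDs, 504 of the 514 that rose and 368 of the 376 that fell had groups that did not overlap, a count that the calls themselves favour. The read share of the risen IDs was 4.15%, 4.85% and 3.72% in T0 replicates 1 to 3 and 10.3%, 15.2% and 12.8% in 6 h replicates 1 to 3. The fallen IDs held 8.43%, 6.84% and 8.60% at T0 and 2.98%, 2.47% and 2.64% at 6 h. Every 6 h library lay past every T0 library in both sets, as the choice of IDs favours, with replicate 1 the least shifted. In replicate 1 the risen IDs had a median log2 difference of 1.32 from the T0 mean, against 1.64 and 1.58 in replicates 2 and 3. For the fallen IDs the medians were -1.18, -1.32 and -1.37.

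A view that the calls fix only in part came from libraries that took no part in them. IDs were called with 1 library left out, and the level in that library was then set against the mean of the other group on the log2(CPM + 0.5) scale. Of the 322 IDs called higher without 6 h replicate 3, 319 were above the T0 mean in that library too, with a median log2 difference of 1.70. Of the 187 called lower, 186 were below it, with a median of -1.53. For 6 h replicate 1, 454 of 455 IDs lay above and 268 of 284 below, with smaller medians of 1.26 and -1.17. For 6 h replicate 2 the counts were 331 of 334 and 223 of 229. Among all tested IDs the held-out 6 h library lay above the T0 mean for 50.5% to 54.9%, but these IDs were not chosen by their T0 levels.

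The same was done with the T0 libraries. T0 replicate 1 lay below the 6 h mean for 241 of 241 IDs called higher without it and above it for 177 of 179 called lower. For T0 replicate 3 the counts were 257 of 258 and 221 of 226. T0 replicate 2 followed least closely, with 671 of 741 and 465 of 510, and with median log2 differences of 0.79 and -0.82 where the kept T0 libraries gave 1.51 and -1.28. These counts are not independent of the calls altogether, since the libraries of the other group entered both.

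**Figure D2:**
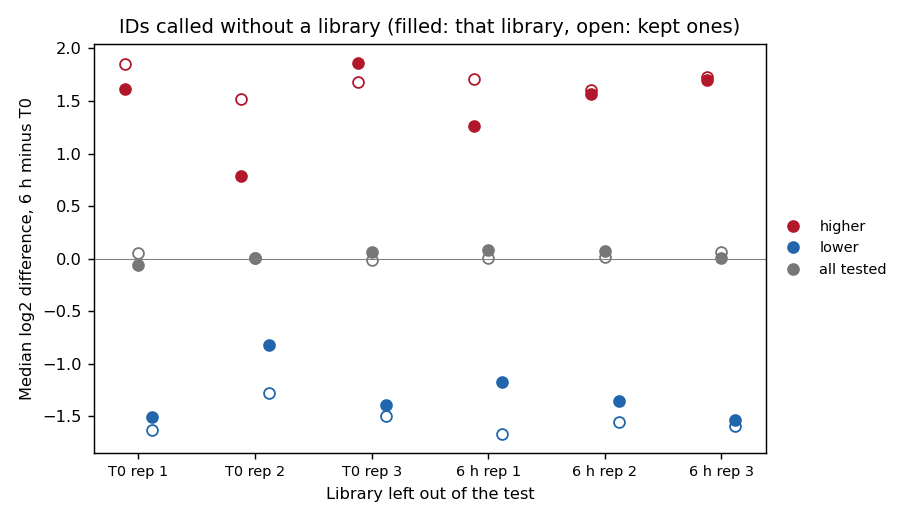
Median log2 difference of 6 h minus T0, on the log2(CPM + 0.5) scale, for IDs called higher (red), called lower (blue) or tested (grey) when the library on the horizontal axis was left out of the test. Filled points give the left-out library and open points the kept libraries of its group; the left-out T0 replicate 2 had the smallest differences, 0.79 and -0.82.

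Most of the largest rises began from low levels. The 26 IDs that rose at least 8-fold had a median of 4.06 CPM at T0 and 51.6 CPM at 6 h, and 19 of them were under 10 CPM at T0. All tested IDs had a median of 22.0 CPM at T0. A choice by fold favours low starting levels. Only 5 of the 26 were under 1 CPM at T0, and 4 had a T0 library without a read, so their folds rest on few T0 reads. By 1 h, 8 of the 26 were already called higher, where 3.1% of all tested IDs were, and by 3 h 19 were, where 4.97% were. Both comparisons share the T0 libraries with that of 6 h, on which the 26 were chosen. In the median they stood 1.76 log2 units above T0 by 1 h, 2.96 by 3 h and 3.40 by 6 h, the last of which follows from the choice. Without 6 h replicate 3, 24 of the 26 were called and 22 were past 8-fold, and 16 of the 26 were called in each of the 6 fits that left out 1 library.

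The 12 IDs that fell at least 8-fold went from a median of 49.4 CPM to 5.05 CPM. Of these, 6 had no read in 6 h replicate 3, the library with few low counts. Without that library, 7 of the 12 were called and 9 were past 8-fold. This small set had median log2 fold changes of -0.72 at 1 h and -3.12 at 3 h, with 1 of the 12 called lower at 1 h (3.15% of all tested) and 8 at 3 h (4.62% of all tested), again against the T0 libraries on which they were chosen. In each of the 6 fits that left out 1 library, 6 of the 12 were called.

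4 IDs were named by rule, from the 854 called IDs whose groups did not overlap and that reached a group mean of 10 CPM. They are those with the largest fold rise, the largest gain in CPM, the largest fold fall and the largest loss in CPM. None of their reads was shared with another gene model.

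Protein 3023196 (1332 nt) had the largest fold rise. It stood at 3.03, 3.84 and 1.64 CPM in T0 replicates 1 to 3, from 41, 8 and 3 reads. At 6 h it stood at 71.7, 163 and 114 CPM, from 530, 978 and 1144 reads. Every 6 h library was far above every T0 library. The rise was 39.6-fold, 5.31 on the log2 scale with an SE of 0.510 (edgeR, Benjamini-Hochberg adjusted p 5.39e-05). It was called in all 20 alternative settings, with log2 fold changes of 4.98 to 5.56. At 1 h it was at 14.3, 17.4 and 13.9 CPM and at 3 h at 181, 52.2 and 169 CPM, so the 3 h and 6 h libraries overlapped.

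Protein 2966528 (474 nt) gained the most reads. It was at 488, 1230 and 281 CPM in T0 replicates 1 to 3 and at 3215, 11010 and 7031 CPM in 6 h replicates 1 to 3. Replicates spread widely in both groups, with T0 replicate 2 and 6 h replicate 2 the highest, yet the groups stayed apart. The rise was 10.6-fold, 3.41 on the log2 scale with an SE of 0.554 (edgeR, Benjamini-Hochberg adjusted p 0.00176), and it passed in all 20 alternatives (Benjamini-Hochberg adjusted p from 4.18e-10 to 0.0158 with edgeR, DESeq2 or limma-voom). Per kb of gene length its mean level went from 1406 to 14948 CPM per kb, from rank 42 to rank 1 outside the dominant pair. At 1 h it was at 570, 404 and 660 CPM, within the T0 range, and did not pass (log2 fold change -0.29, edgeR, Benjamini-Hochberg adjusted p 0.799). By 3 h it was at 4676, 5356 and 3528 CPM. The rise was thus seen from 3 h on, and the direct test of 6 h against 1 h gave a rise of 3.70 on the log2 scale with an SE of 0.561 (edgeR, Benjamini-Hochberg adjusted p 0.00127).

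Protein 5806 (324 nt) had the largest fold fall of the 854 IDs that the rule allowed. The largest fall among all called IDs was -5.17 on the log2 scale, in an ID outside those 854. It was at 275, 331 and 130 CPM at T0 and at 6.90, 16.9 and 7.80 CPM at 6 h, from 51, 101 and 78 reads. The lowest T0 library was still far above the highest 6 h library. On the log2 scale the change was -4.56 with an SE of 0.503 (edgeR, Benjamini-Hochberg adjusted p 0.000133), and it passed in all 20 alternatives, with values between -5.06 and -4.31. By CPM it went from rank 495 to rank 7854 of all IDs.

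Protein 2939861 (741 nt) lost the most reads of the 854 IDs that the rule allowed, although its fold was small. It was the most abundant model by CPM at T0 outside the dominant pair, at 4050, 4698 and 5328 CPM in replicates 1 to 3. At 6 h it was at 2460, 2199 and 1964 CPM, all below T0. On the log2 scale the change was -1.09 with an SE of 0.297, or 2.13-fold (edgeR, Benjamini-Hochberg adjusted p 0.0358). This call was the least firm of the named ones. It passed in 12 of 20 alternatives, with Benjamini-Hochberg adjusted p-values from 2.44e-05 to 0.228 (edgeR, DESeq2 or limma-voom), and was lost without T0 replicate 1 (0.0593), T0 replicate 3 (0.0914), 6 h replicate 1 (0.0650), 6 h replicate 2 (0.0911) or 6 h replicate 3 (0.154). The lowest mean came earlier, from 1407, 1037 and 1414 CPM at 1 h, and it was called lower at 1 h and at 3 h too (log2 fold changes -1.87 and -1.52, edgeR, Benjamini-Hochberg adjusted p 0.00181 and 0.00511). The difference between 6 h and 1 h did not pass (log2 fold change 0.78, edgeR, Benjamini-Hochberg adjusted p 0.156).

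**Figure D3:**
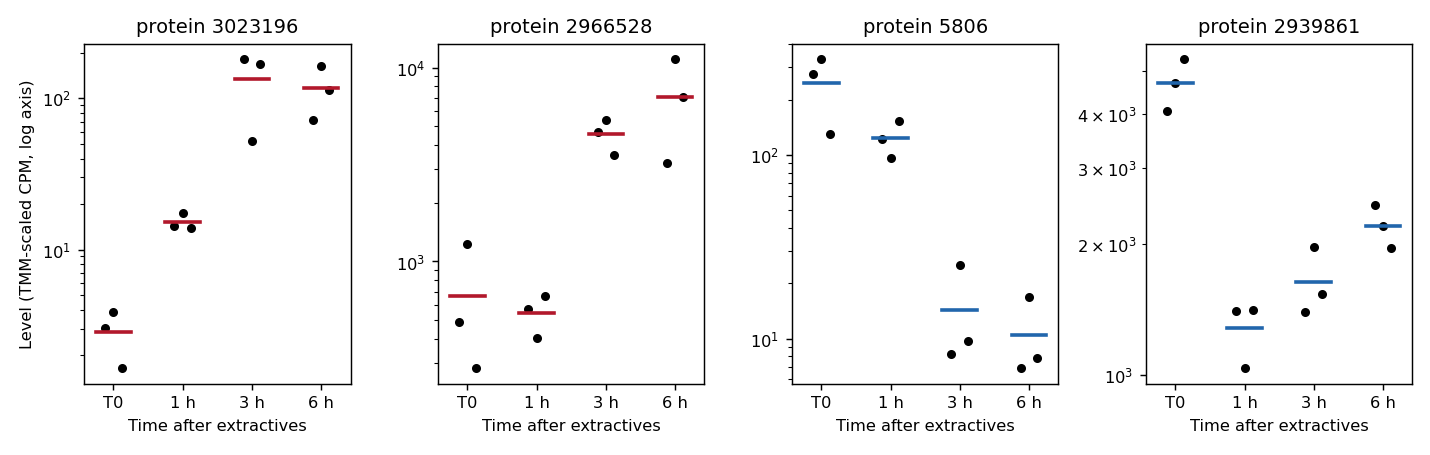
Level in TMM-scaled CPM (log axes, 1 scale for each panel) of the 4 named IDs in each of the 12 libraries by time after the extractives, with the mean of 3 libraries as a bar. The 3 h and 6 h libraries overlapped for each of the 4 IDs, and protein 2939861 had its lowest mean at 1 h.

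The way to the 6 h state was read from the same IDs at 1 h and 3 h, each against the shared T0 libraries. At 1 h, 3.1% of all tested IDs were higher and 3.15% lower than at T0, and at 3 h 4.97% and 4.62%. Of the 514 IDs higher at 6 h, 130 were also called at 1 h and at 3 h, 254 at 3 h and not at 1 h, 21 at 1 h and not at 3 h, and 109 at neither. Of the 376 lower at 6 h, the counts were 89, 192, 12 and 83. Since the T0 libraries enter each comparison, these counts are no independent evidence of one another. Depth differed between the times as well. Outside the dominant pair, the 1 h replicates 1 to 3 had 6326762, 729521 and 1651318 reads, and the 3 h libraries 4586896 to 10364009. Whether depth set which IDs were called at 1 h was not tested, so a lack of a call at 1 h is not read as a later start.

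The IDs called at 3 h and 6 h but not at 1 h were the largest class in both directions. Those higher had median log2 fold changes from T0 to 1, 3 and 6 h of 0.70, 1.61 and 1.56, and those lower had -0.59, -1.38 and -1.35. Set directly against 1 h, 78 of the 254 were called higher at 6 h and 53 of the 192 lower, and none was called the other way. In that comparison 2.71% of all tested IDs were called higher and 2.21% lower. The 130 IDs called higher at all times had medians of 1.66, 1.71 and 1.63. Since the classes were set by the calls at 1 h and 3 h, the class medians and the calls against 1 h follow in part from the choice.

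Most IDs called at 6 h alone lay on the same side of T0 before. They were chosen against the same T0 libraries, which favours this, and no share of all tested IDs is set beside it. Of the 109 that rose, 108 were above T0 at 3 h and 88 at 1 h, with medians of 0.44, 0.81 and 1.26 at 1, 3 and 6 h. Of the 83 that fell, 82 were below T0 at 3 h and 68 at 1 h, with medians of -0.55, -0.80 and -1.25. None of these 192 IDs passed the test of 6 h against 3 h, in which edgeR called 0 IDs of all tested, with 426 at an unadjusted p under 0.05, so a difference between 6 h and 3 h was not shown for them. Against 1 h, 28 of the 109 were called higher and 17 of the 83 lower, where 2.71% and 2.21% of all tested IDs were. Choosing IDs called at 6 h and not at 1 h favours such calls.

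Calls in opposite directions were counted within the IDs called at 6 h, which leaves out every ID that had changed at 1 h and returned to T0. Of the 514 IDs higher at 6 h, 3 had been called lower at 1 h, with medians of -1.75, 0.21 and 1.12 on the log2 scale at 1, 3 and 6 h, and all 3 were called higher at 6 h than at 1 h. No ID lower at 6 h had been called higher at 1 h or 3 h, and none of those higher had been called lower at 3 h. Of all tested IDs, 3.1% were called higher and 3.15% lower at 1 h, and 4.97% and 4.62% at 3 h. The shared T0 libraries make opposite calls less likely, so their small number is not read as a result. Against 1 h, 9 of the 130 risen at all times were called lower at 6 h, where 2.21% of all tested IDs were. Of the 89 fallen at all times, 3 were called higher, where 2.71% were. All of these were still called against T0 at 6 h. A choice by calls at 1 h favours a move back towards T0, so nothing is read from these counts.

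In reads, the IDs higher at 6 h held 7.33% ± 0.751 at 1 h and 13.3% ± 0.532 at 3 h (SD, n = 3), beside the T0 and 6 h shares given above. The IDs lower at 6 h held 4.37% ± 0.272 at 1 h and 2.78% ± 0.214 at 3 h, so in both sets the 3 h share was close to that at 6 h.

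**Figure D4:**
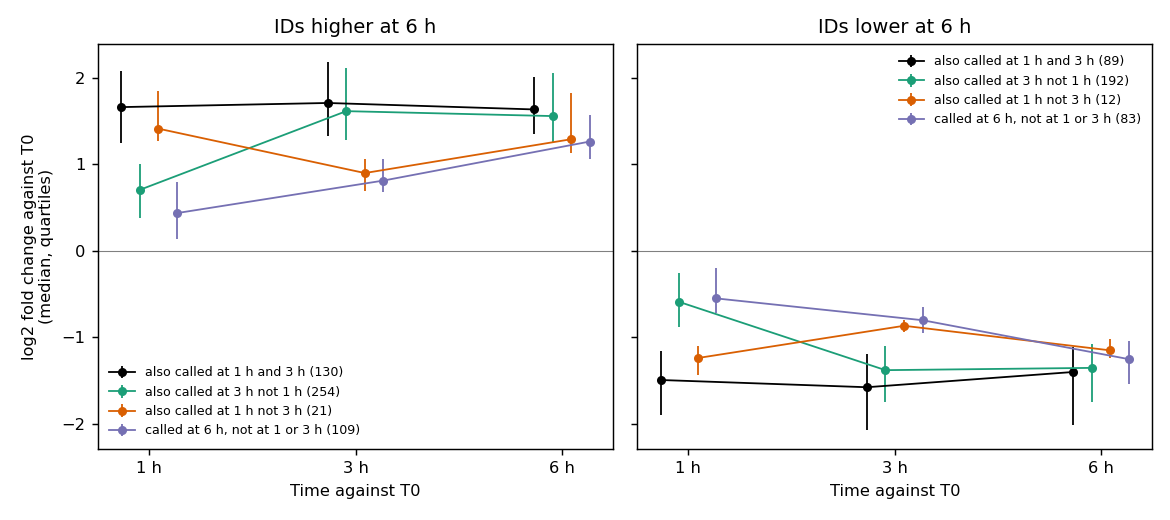
Median log2 fold change against T0, with quartiles as bars, at 1, 3 and 6 h for the IDs higher (left) and lower (right) at 6 h, split by whether they were also called at 1 h or 3 h. The classes called at 6 h alone, 109 higher and 83 lower, had medians on the same side of 0 at 1 h and 3 h. The shared T0 libraries favour this, and the split by calls in part sets the medians of each class.

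The most abundant transcripts of the groups were compared per length. Per kb of gene length, 74 of the 100 IDs with the highest mean level at T0 outside the dominant pair were also among the 100 highest at 6 h. Between single libraries the number shared was 61 to 79 within T0, 76 to 88 within 6 h and 56 to 76 between the groups, so the ranges within T0 and between the groups overlapped. Among the 20 highest, 11 were shared. Of the 26 IDs that entered the list of 100, 13 were called higher, where 4.35% of all tested IDs were, and of the 26 that left it, 4 were called lower, where 3.18% were. Entering or leaving the list chooses IDs by the same levels as the test, so nothing is read from these counts. The 100 highest of 6 h held 13.0% ± 3.04 of the reads at T0 and 18.2% ± 0.947 at 6 h (SD, n = 3), a gain that the choice of the list favours.

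The gain in reads was uneven over the risen IDs. The 514 risen IDs gained 8.51 percentage points of the reads, of which the 10 with the largest gains brought 35.2% and 24 brought 50%. The share of the 376 fallen IDs fell by 5.26 points, of which the 10 with the largest losses made 25.3% and 40 made 50%. Both changes in share follow from the choice of IDs. Reads were held unevenly over all IDs too, since 625 to 982 of the 11306 to 12772 IDs with a read held 50% in a library. Nothing particular to the called IDs is therefore read from these counts. How evenly reads were spread over all IDs was not shown to differ. It took 982, 714 and 871 IDs to hold 50% of the reads at T0 and 779, 625 and 715 at 6 h (exact permutation test, two-sided p = 0.3, where 0.1 is the smallest p that 3 against 3 libraries allow). It was 1 of 14 such measures of reads tested, none of which can pass at this size.

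The share of IDs called rose with level. Of the 3634 tested IDs with a mean of 1 to 10 CPM over the 12 libraries, 0.826% were called higher and 0.633% lower. Of the 6489 at 10 to 100 CPM it was 5.15% and 4.13%, and of the 1552 at 100 to 1000 CPM 9.09% and 5.35%. Precision differed as well, since the median SE of the log2 fold change was 0.69, 0.32 and 0.30 in these classes, and a larger change is needed at low counts to pass. Of the 53 IDs over 1000 CPM, the dominant pair included, 9 were higher and 1 was lower. Without that pair the class held 9.54%, 12.2% and 10.5% of the reads at T0 and 12.4%, 15.3% and 13.5% at 6 h. The groups did not overlap. The exact permutation test gave a two-sided p of 0.1, the smallest it can give here, or 0.467 after Benjamini-Hochberg adjustment over the 14 measures. The class was set by a mean that includes the libraries after T0, which makes it easier for risen IDs to enter. This choice favours both the 9 higher calls and the gain in share.

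Gene length moved with the direction of the call. The IDs that rose had a median length of 1164.5 nt and those that fell 1634.5 nt, against 1275 nt for all tested. In the shortest quartile of IDs (up to 858 nt) 155 were higher and 48 lower, and in the longest quartile (over 1829 nt) 70 were higher and 147 lower. The T0 libraries themselves differed by length. Over the shortest quartile, the median log2 deviation from the mean of the 12 libraries was -0.15, 0.28 and -0.46 in T0 replicates 1 to 3, and 0.14, 0.03 and 0.11 at 6 h. With each library's trend on length removed, the counts were 196 higher and 124 lower in the shortest quartile and 144 and 140 in the longest, and 677 higher and 567 lower in all.

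**Figure D5:**
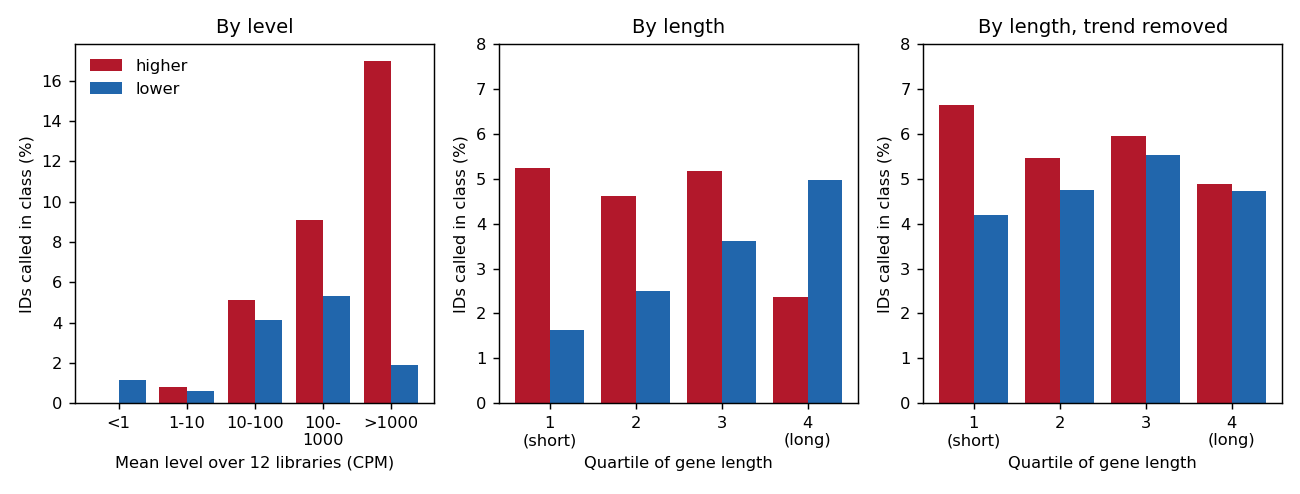
Share of tested IDs called higher (red) or lower (blue) at 6 h by mean level in CPM (left), by quartile of gene length (middle) and by quartile of length after each library's length trend was removed (right). In the longest quartile 70 IDs were higher and 147 lower before the removal, and 144 and 140 after it.

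Transcripts seen in one group alone were few. There were 15 IDs without a read in the 3 T0 libraries and with at least 10 reads over the 6 h libraries, and in 9 of them a single library held over 90% of those reads. In the other direction there were also 15, with at most 20 reads each over the T0 libraries, and in 6 of them a single library held over 90%. For these, a 0 in 6 h replicate 3 need not mean absence. The filter on low counts kept 2 of the first 15 and 0 of the second for testing, and neither of the 2 was called, so nothing is read from the lack of calls here. Reads shared between gene models touched few calls, since more than 10% of the reads were shared in 16 of the 514 risen IDs and 8 of the 376 fallen, or 3.11% and 2.13%, against 3.27% of all tested. Those 24 are uncertain.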

How the data were processed

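Per the file headers, the authors deposited 1 table per sample that gives, for each protein ID, a count of reads unique to the gene, a count of all its reads and an RPKM value. Not given in the sources used here are the strand setting, aligner, counter, build and annotation. Per the labels, the 3 cultures of a time are biological replicates. Total gene read counts were tested as deposited. The RPKM values the authors deposited served only to recover gene lengths, which matched them to within a relative gap of 2.09e-08.

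Counts of all 12 libraries were filtered with filterByExpr, scaled by TMM and fitted with glmQLFit in edgeR 4.0.16 under R 4.3.3. The model held the 4 group means and left 8 residual degrees of freedom, and glmQLFTest gave the contrast of 6 h with T0. The common coefficient of biological variation was 0.333. IDs with a Benjamini-Hochberg adjusted p under 0.05 over all tested IDs were called. Each SE was derived from the log2 fold change and its F value. Classes of level use the mean over the 12 libraries. Shares were compared by exact permutation tests (scipy 1.17.1). Named IDs were the called ones with non-overlapping groups and a group mean of at least 10 CPM that had the largest fold rise, CPM gain, fold fall and CPM loss. Alternatives were other scalings and filters, DESeq2 1.42.0, limma-voom (limma 3.58.1), fewer libraries, a replicate block, unique reads, the dominant pair left out or as a covariate, removal of length trends and stricter thresholds. No replicate pair agreed within sampling noise (smallest chi-square per degree of freedom 22.0). The scripts were tested on simulated counts. The comparison, the classes and the rule for named IDs were chosen with earlier results of these data known. Lists of gene families could not be tested without names.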

Additional observations from a re-analysis of the deposited data

How the results depend on the processing

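The number of IDs higher at 6 h, 514, became 789 with DESeq2, 257 with the 6 libraries alone, 195 at an adjusted p under 0.01, 190 in a test against a 1.5-fold change, and 241 to 741 with 1 library left out. The number lower, 376, became 703 with DESeq2, 575 with limma-voom, 174 with the 6 libraries alone, 567 with the length trend removed, 125 at an adjusted p under 0.01, 113 against a 1.5-fold change, and 179 to 510 with 1 library left out. The cause was not tested, except that a stricter threshold lowers a count by construction. With the other settings (scaling, filters, unique reads, the dominant pair left out or used as a covariate) both counts stayed within 1.5 times. In all 19 alternatives that give one, the median log2 fold change of all tested IDs stayed between -0.045 and 0.026. Each of these settings scales the libraries, which by itself centres this median near 0. A shift of all transcripts together could therefore not be seen. At a minimum of 30 reads, 5 IDs (15 at 10 reads) were seen at 6 h without a read at T0, and 0 (15 at 10 reads) the other way. Fitted with the replicate number as a block, 437 IDs were higher and 275 lower, and protein 2939861 no longer passed (adjusted p 0.0635, edgeR). The labels tie same-numbered T0 and 6 h cultures by number alone, and their deviations from the group means had correlations of 0.08, -0.12 and -0.03. The call of protein 2939861 was also lost with the 6 libraries alone (adjusted p 0.0965, edgeR) and in the test against a 1.5-fold change. Depth limits low transcripts most in T0 replicates 2 and 3, where 3 counts correspond to 0.998 and 1.20 CPM of total reads, a limit that covers counting error only. These values are not scaled by TMM. On the TMM scale used for levels the limit is higher, as the 3 reads of protein 3023196 in T0 replicate 3 gave 1.64 CPM.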
